A study of Mus musculus with 2 samples.

Results

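Zinc metalloproteases and their tissue inhibitors were compared between pericytes, mural cells of small vessels, grown under normal and under high glucose. The group was chosen by gene symbol: every gene on the array whose probe accession maps to Mmp, Adam, Adamts or Timp followed by a digit. This gave 79 of 20887 named genes, with 22 Mmp, 34 Adam, 19 Adamts and 4 Timp genes on 105 probes. The cells were primary pericytes from C57BL/6 mice, isolated from cavernous tissue of the penis. The medium of both cultures was DMEM with 20% FBS, 1% penicillin/streptomycin and human PEDF, a secreted serpin, at 10 nM. Normal glucose is labelled 5 mmol and high glucose 30 mmol, each applied over 72 h. The labels state no volume for these amounts and no genotype beyond the strain, and an osmotic control was not analysed here.

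Each condition is 1 pool of RNA from 3 samples on 1 Agilent 1-colour array. With a single array on each side there is no replicate check and no p-value, and differences are those between these 2 pools. Pooled RNA also cannot tell fewer cells of a type from less RNA per cell. Of 59305 gene spots, 56.3% on the normal and 57.6% on the high glucose array were well above background, and no spot was saturated.

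Matrix metalloproteases (MMPs) are secreted or membrane-bound enzymes that cut collagens and other matrix proteins after a propeptide is removed. ADAMs are membrane proteins, and those with an active protease shed growth factors, receptors and adhesion proteins from the cell surface. ADAMTS enzymes are secreted and act on proteoglycans, procollagens and other matrix proteins. TIMPs bind the active site of these enzymes and block it. In vessels, pericytes are a known source of TIMP3, and the balance of these enzymes and inhibitors shapes the basement membrane.

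Several MMP genes lie side by side on mouse chromosome 9, and many of them are textbook targets of the transcription factor AP-1. RefSeq lists 10 Mmp genes that follow each other there in the order Mmp13, Mmp12, Mmp1b, Mmp3, Mmp1a, Mmp10, Mmp8, Mmp27, Mmp20 and Mmp7. Only Mmp13, Mmp12, Mmp3 and Mmp10 were measured on both arrays. The 150 bases before the start site of these 4 genes are shown from RefSeq (GRCm38.p6, all on the + strand). They carry the same short motif. The values of these genes under high glucose are given below, and a part of AP-1 in them was not tested. Capitals mark the AP-1 letters TGANTCA and the TATA box letters TATAAA.
Mmp13 (chr9:7272364-7272513): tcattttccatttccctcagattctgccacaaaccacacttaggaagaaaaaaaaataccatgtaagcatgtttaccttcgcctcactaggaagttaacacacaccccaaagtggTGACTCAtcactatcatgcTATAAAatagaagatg
Mmp12 (chr9:7347224-7347373): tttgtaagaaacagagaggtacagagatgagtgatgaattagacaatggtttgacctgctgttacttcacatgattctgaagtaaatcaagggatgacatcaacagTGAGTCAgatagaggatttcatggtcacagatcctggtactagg
Mmp3 (chr9:7445672-7445821): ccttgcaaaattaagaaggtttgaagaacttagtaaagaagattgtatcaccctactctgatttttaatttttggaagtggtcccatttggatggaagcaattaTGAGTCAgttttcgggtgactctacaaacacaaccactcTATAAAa
Mmp10 (chr9:7502192-7502341): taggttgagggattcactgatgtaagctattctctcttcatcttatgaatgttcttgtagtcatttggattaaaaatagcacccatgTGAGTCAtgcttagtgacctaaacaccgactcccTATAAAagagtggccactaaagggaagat

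The AP-1 letters ended 28 bases before the start site of Mmp13, 37 before that of Mmp12, 39 before that of Mmp3 and 56 before that of Mmp10. Mmp12 has 2 windows in the table, and the one with the motif is shown. Promoter windows of 300 bases, 250 before to 50 after a start site, were searched on both strands; the AP-1 and TATA letters do not overlap in the stretches shown. Of the 32851 windows in the table, 7.81% held TGANTCA, and among the windows of members on the array 13 of 54 did. The TATA letters were in 13.6% of all windows and in 15 of 54 windows of members. The GC box, searched as GGGCGG, was in 35.7% of all windows and in 23 of 54. All 3 windows of the measured Timp genes held the GC box and none the AP-1 letters. A match describes the letters only, and no window was available for 30 of the 79 members.

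Of the 79 members, 44 were well above background on both arrays, 2 on the normal glucose array only and 33 on neither. The 44 measured genes were 12 Mmp, 17 Adam, 12 Adamts and 3 Timp genes, each represented by its brightest probe. Ratios are log2 of high over normal glucose after each array's 75th percentile was subtracted. A ratio of 0 means equal scaled signals, and 1 means a signal 2-fold higher in high glucose. At least 2-fold differences were seen in 2 of 44 measured members, 1 higher and 1 lower, where 0.917% of all 14176 measured genes differed that much, 0.501% higher and 0.416% lower. At least 1.5-fold differences were seen in 3 of 44, 2 higher and 1 lower, against 2.81% of all measured genes, 1.62% higher and 1.19% lower. At least 1.2-fold differences were seen in 7 of 44 members, 2 higher and 5 lower, or 15.9%, against 12.3% of all measured genes, 6.8% higher and 5.51% lower. That share is close to the one for all genes. The count was 12 of 44 with median pixels and 11 of 44 with each array centred on its median. These settings also moved the median of all genes, to -0.02 and -0.07. The share of all genes past 1.2-fold under them is not given, so these counts cannot be set against the 12.3%. A log2 ratio below 0 was found in 28 of 44 members, against 53.2% of all measured genes, and one above 0 in 16 of 44, against 46.8%. Among the 32 members with a log2 signal of at least 7 on both arrays, 2 passed 1.2-fold, against 6.68% of such genes, and 0 passed 1.5-fold, against 0.94%. The median log2 ratio of the measured members was -0.06 and that of all measured genes -0.01.

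**Figure D1:**
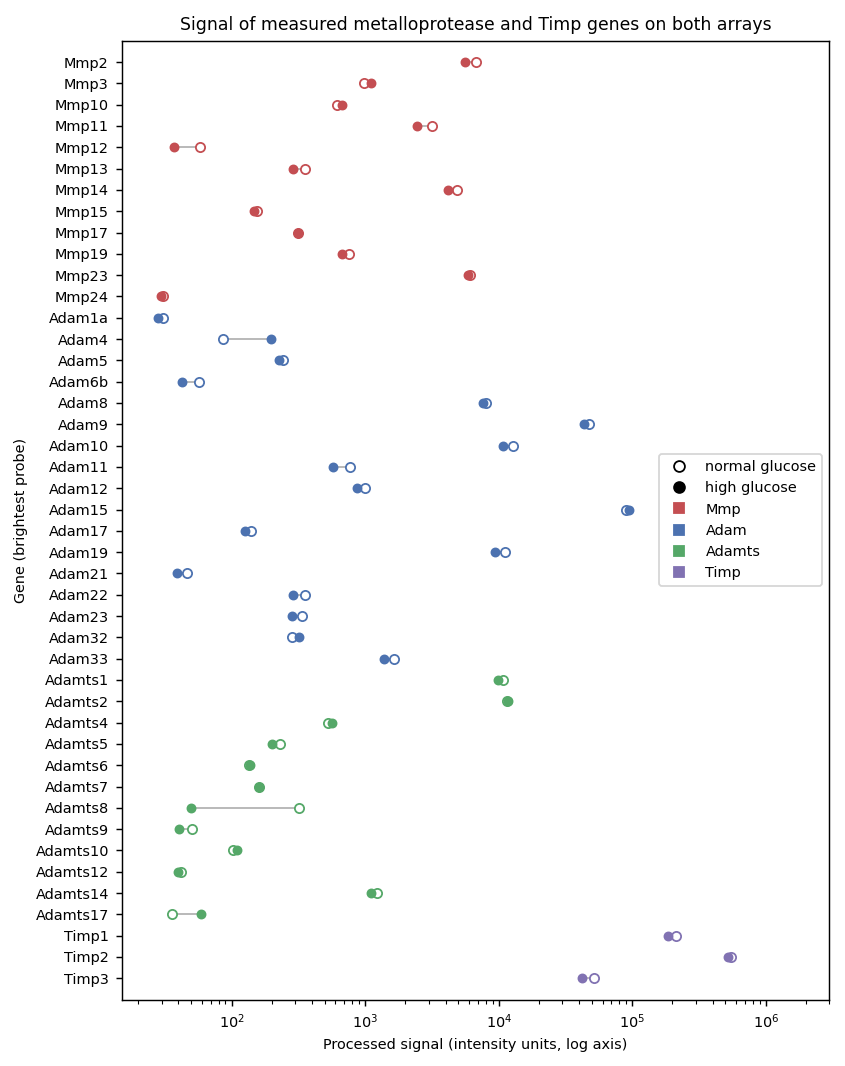
Processed signal (intensity units, log axis) of the 44 members measured on both arrays, with open circles for normal and filled circles for high glucose and colours for the gene class. Each signal is unscaled, and the 75th percentile was 774 in normal and 733 in high glucose, so equal scaled signals put the filled circle slightly to the left; Adamts8 and Adam4 have the widest gaps.

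The error of a single ratio was read from probes printed 10 times on each array. The median SD of the log2 ratio between such spots was 0.29 for log2 signals below 7, 0.10 from 7 to 9, 0.044 from 9 to 12 and 0.032 above 12. These values hold spot noise only, not differences between cultures. Second probes of the same gene are a broader check. Over 3632 genes with at least 2 measured probes, the ratios of the 2 brightest pointed the same way in 59.2%. Their Pearson correlation was 0.21. Among members they did so in 8 of 10. This count leaves out the third Adam12 probe and Adamts8, whose second probe was well above background in high glucose only. Each of these 2 probes pointed opposite to the brightest probe of its gene, as given below.

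The 3 measured inhibitors were equal or slightly lower in high glucose. Timp1, a secreted inhibitor of most MMPs, gave 212169 under normal and 187058 under high glucose. After scaling this was a log2 ratio of -0.10, with a spot SD of 0.032. Timp2, which also takes part in the activation of pro-MMP2 at the cell surface, had 552046 and 522048, a log2 ratio of -0.0007. The second Timp2 probe had 161666 and 141831, a log2 ratio of -0.11. The 2 Timp2 probes thus differed by more than the spot SD, so a small decrease was seen by 1 probe and none by the other. Timp3, which binds to the matrix and inhibits several ADAMs as well, had 51842 in normal and 42054 in high glucose. Its log2 ratio of -0.22, or 1.17-fold lower, was the largest of the class and stayed under 1.2-fold. Timp4 was not well above background in either condition, with 10.6 and 25.7. The class median was -0.10.

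Measured Mmp genes were split evenly, 6 lower and 6 higher, against 53.2% and 46.8% of all measured genes. Their median log2 ratio was -0.04. None reached 1.5-fold, against 2.81% of all measured genes. The 2 of 12 past 1.2-fold, Mmp11 and Mmp12, were both lower, where 12.3% of all measured genes passed. With normexp, a model of the background fitted here to median spot signals, Mmp12 did not pass. The gelatinase Mmp2, which degrades denatured collagen and type IV collagen of the basement membrane, had 6725 in normal and 5599 in high glucose. Its log2 ratio was -0.18 with a spot SD of 0.032. Mmp14, the membrane-type enzyme that activates pro-MMP2 together with TIMP2, had 4891 and 4197, a log2 ratio of -0.14. Mmp2 and Mmp14 were thus both lower by more than the spot noise and by less than 1.2-fold. The other gelatinase, Mmp9, was printed 10 times and was not well above background in normal glucose; 1 of its 10 spots was in high glucose. Its highest spot reached 17.6 in normal and 37.8 in high glucose, and the medians were 11.6 and 11.8.

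The stromelysins, which cut proteoglycans, fibronectin and the propeptides of other MMPs, went in different directions. Mmp3 had 985 in normal and 1100 in high glucose, a log2 ratio of 0.24 that was 0.12 from median pixels and 0.11 with normexp. Mmp10 had 611 and 674, a log2 ratio of 0.22, and 0.20 and 0.18 under these settings; dim spots around it were shifted by 0.14 in the same direction. Both genes, members of the chromosome 9 group, were thus higher by more than the spot SD of 0.044, at 1.18-fold and 1.17-fold. Mmp11 (stromelysin 3), which is grouped with them by name and lies elsewhere, was lower. It gave 3166 under normal and 2466 under high glucose, a log2 ratio of -0.28, and its second probe had 1597 and 1254, or -0.27. Mmp11 was the only Mmp gene with 2 measured probes, and they gave nearly the same ratio; dim spots around the brighter one were shifted by 0.33, opposite to the change.

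Among the collagenases only Mmp13, which cuts fibrillar collagens, was measured. It had 352 in normal and 286 in high glucose, a log2 ratio of -0.22 with a spot SD of 0.10. Its ratio was -0.10 from median pixels and -0.08 with normexp. Mmp12, the elastase known from macrophages, had 57.5 and 37.0, a log2 ratio of -0.56. This signal was dim, with a spot SD of 0.29, and the second probe was not well above background. Dim spots around it were shifted by -0.30 in the same direction, whose part in the ratio was not tested, and with normexp the ratio was -0.23, under 1.2-fold. Of the chromosome 9 group Mmp3 and Mmp10 were thus higher and Mmp13 and Mmp12 lower.

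The remaining membrane-type enzymes were close to 0. Mmp15 had 155 in normal and 148 in high glucose (log2 ratio 0.02), and Mmp17 had 313 and 314 (0.09). Mmp24, with 30.4 and 29.5, had a ratio of 0.03 at a signal near the limit of detection. Of the other Mmp genes, Mmp19 had 758 and 671, a log2 ratio of -0.10. Mmp23 had 6052 and 5872, a ratio of 0.04. Signs this close to 0 depend on the scaling: Mmp23 was lower with each array centred on its median, Mmp15 and Mmp24 in 3 and 4 of the alternatives. Not well above background on either array were Mmp1a, Mmp1b, Mmp7, Mmp8, Mmp9, Mmp16, Mmp20, Mmp21, Mmp25 and Mmp28, with signals, averaged over repeat spots, up to 16.9 in normal and 26.8 in high glucose.

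**Figure D2:**
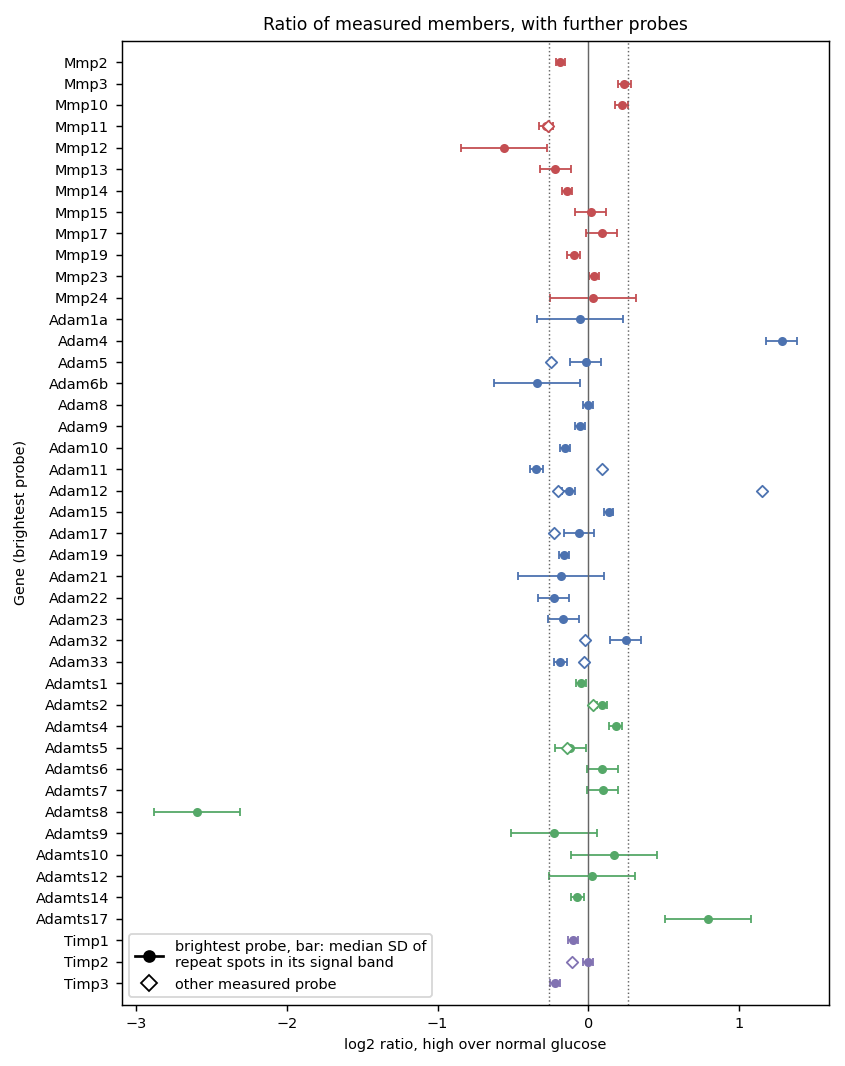
Log2 ratio (high over normal glucose) of the 44 measured members; filled circles are the brightest probe with the median SD of repeat spots in its signal band, diamonds are further measured probes of the gene, and dotted lines mark 1.2-fold. Most members lie between the dotted lines, the Adam genes mostly left of 0, while Adam12 has 1 probe far from its other 2.

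Adam genes were mostly lower. Of 17 measured Adam genes 14 were lower in high glucose, against 53.2% of all measured genes, and the class median was -0.13. With log2 signals of at least 7 on both arrays, 10 of 12 were lower, against 53.7% of the 11917 genes with such signals, with a median of -0.14. The individual changes were small: 3 of 17 passed 1.2-fold, Adam11 and Adam6b lower and Adam4 higher, where 12.3% of all measured genes passed. With median pixels 7 of 17 passed, and the share of all genes under that setting is not given. As a group of related genes they are not replicates of the condition, and the lean describes this pair of arrays.

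Adam10, the sheddase of Notch receptors and cadherins, had 12727 in normal and 10831 in high glucose. Its log2 ratio of -0.15 was larger than the spot SD of 0.032. Adam17 (TACE), which sheds TNF and EGF receptor ligands, had 140 and 127, a log2 ratio of -0.06, and its second probe had 114 and 91.8, or -0.23. It lies outside the rule for naming and was added after its values were seen, as were Adam12, Adam22, Adam23 and Adam32. Adam10 was thus lower by more than spot noise, and Adam17 differed by less than its spot SD on both probes, 0.10 and 0.29.

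Adam9 had 47448 in normal and 43256 in high glucose, a log2 ratio of -0.05. Adam15, an ADAM with an integrin-binding motif, had 90442 and 93939, a ratio of 0.13, and was one of the 3 higher Adam genes. Adam8, known from leukocytes, had 8034 and 7584, a ratio of -0.0033, the closest to 0 of the class. Adam19, a protease of neuregulin, had 11088 and 9376, a log2 ratio of -0.16. Adam33 had 1658 and 1380, a ratio of -0.18, and its second probe gave -0.03. Thus Adam10, Adam19 and Adam33 were lower beyond spot noise on their brightest probe, Adam15 was higher, and Adam8 was equal.

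Adam12, which is known from activated mesenchymal cells, had 3 measured probes for the same transcript that did not behave alike. The brightest had 1005 in normal and 869 in high glucose, a log2 ratio of -0.13. A second had 112 and 92.5, a ratio of -0.20, while the dimmest had 41.2 and 87.0, a ratio of 1.16. At that signal the spot SD was 0.29, and the median pixels gave 0.90. The brightest probe therefore showed a slightly lower Adam12, by more than its spot SD of 0.044. The second was lower by less than its spot SD of 0.29, and the dimmest gave a 2.23-fold higher signal.

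Some ADAMs, among them Adam11, Adam22 and Adam23, lack an active protease and serve in adhesion; no list of such genes was fixed, and these are single values. Adam11 had 774 in normal and 577 in high glucose, a log2 ratio of -0.34, or 1.27-fold lower. Its second probe, with 57.7 and 58.1, gave 0.09. Adam22 had 355 and 286, a ratio of -0.23, and Adam23 had 334 and 282, a ratio of -0.16. Adam32, a sperm ADAM, went the other way with 283 and 318, a ratio of 0.25, and -0.02 on its second probe. All of these are known mainly from brain or testis, and each second probe that was measured gave a smaller or opposite ratio.

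The largest Adam difference was in Adam4, a gene known from testis. Its only probe had 85.7 in normal and 197 in high glucose, a log2 ratio of 1.28 or 2.44-fold higher. Dim spots around it were shifted by 0.34 in the same direction, and the part of that shift in the ratio was not tested. With the background modelled on median spot signals the ratio was 0.80, which is below 2-fold. Adam6b had 57.4 and 42.8, a ratio of -0.34, close to the spot SD of 0.29 at that signal, and -0.13 with normexp, under 1.2-fold. Adam26b was well above background in normal glucose only, with 35.0 against 24.3, a nominal bound of 1.36-fold lower. This bound sets the bright signal against the higher of the dim signal and the lowest spot well above background on that array. For Adam26b the dim signal was the higher, so the bound is its plain ratio, at a spot SD of 0.29. The other 3 measured Adam genes were Adam1a, Adam5 and Adam21, with signals up to 241 and ratios between -0.18 and -0.02 on their brightest probes. The second Adam5 probe had 202 and 161, a ratio of -0.25 with a spot SD of 0.10.

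Adam18, Adam1b, Adam2, Adam20, Adam24, Adam25, Adam26a, Adam28, Adam29, Adam3, Adam30, Adam34, Adam34l, Adam39, Adam6a and Adam7 were not well above background on either array. Many of these are known from the male germ line, Adam2 being a subunit of the sperm protein fertilin. Their signals reached 23.5 in normal and 21.7 in high glucose.

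**Figure D3:**
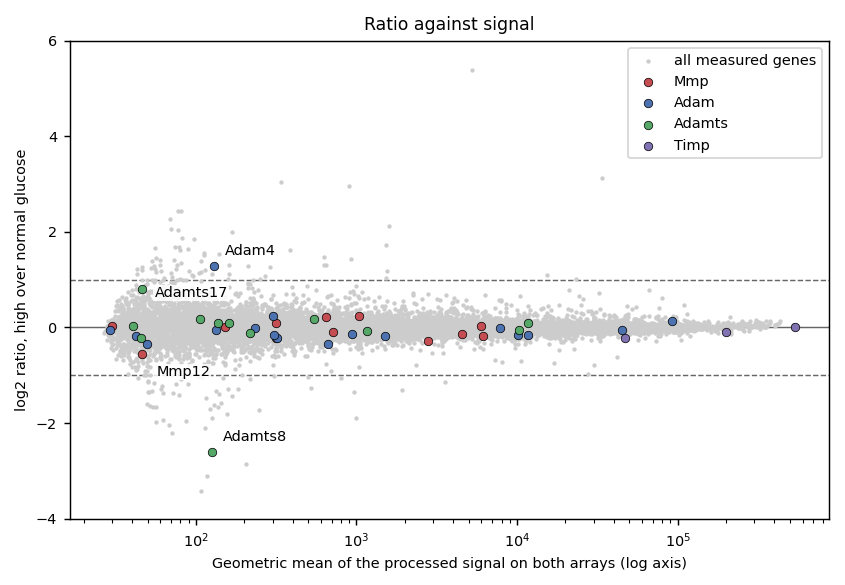
Log2 ratio (high over normal glucose) against the geometric mean of the processed signal on both arrays (log axis), for all 14176 measured genes in grey and the 44 members in colour; dashed lines mark 2-fold. The members past 2-fold, Adamts8 and Adam4, lie at the dim end where the grey cloud is wide, and bright members lie close to 0.

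Adamts genes did not share a direction: 5 of 12 were lower and 7 higher, against 53.2% and 46.8% of all measured genes. Their median was 0.06. Among the proteoglycanases, which cut aggrecan and versican, Adamts1 had 10798 in normal and 9884 in high glucose, a log2 ratio of -0.05. Adamts4 had 525 and 564, a ratio of 0.18 with a spot SD of 0.044, and 0.08 from median pixels. Adamts5 had 232 and 202, a ratio of -0.12, and its second probe gave -0.14. Of these aggrecanases Adamts4 was thus slightly higher and Adamts5 slightly lower, neither by 1.2-fold. Adamts9, named after its values were seen, had 50.4 and 40.7, a ratio of -0.23 within its spot SD of 0.29.

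Adamts8, also a proteoglycanase, gave opposite answers on its 2 probes, which are assigned to the same transcript accession. The brighter probe gave 319 under normal and 49.8 under high glucose, a log2 ratio of -2.60 or 6.05-fold lower. The other probe had 6.83 in normal glucose, not well above background, and 50.3 in high glucose. After scaling, this was 1.98-fold above the lowest spot well above background in normal glucose, a nominal bound. Median pixels gave -2.52 for the first and 1.61 for the second probe, the latter without a floor, and dim neighbours were shifted by 0.06 and -0.16. The probes point in opposite directions, so no direction is given for Adamts8 itself, although the probe that represents it is the 1 member counted as at least 2-fold lower.

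The procollagen N-propeptidases, which trim fibrillar procollagens before fibrils form, were measured for Adamts2 and Adamts14. Adamts2 had 11609 in normal and 11687 in high glucose, a log2 ratio of 0.09, and 0.03 on its second probe. Adamts14 had 1222 and 1099, a ratio of -0.07. Adamts3 was well above background in normal glucose only, with 72.5 against 6.08 on its single probe. Set against the lowest spot well above background in high glucose, it was 2.86-fold lower, a nominal bound. This is the strongest bound among the members, at a signal where repeat spots were noisy, and its dim neighbours were shifted by -0.23 in the same direction; their part was not tested. The enzymes known to cut COMP, a cartilage and vessel wall protein, were near 0. Adamts7 had 159 and 161, a ratio of 0.10 that was -0.05 from median pixels, and Adamts12, added after its values were seen, had 41.6 and 40.0, a ratio of 0.02.

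Of the other Adamts genes, Adamts17 was the 1 past 1.2-fold. It gave 35.9 under normal and 59.0 under high glucose, 1.74-fold higher with a log2 ratio of 0.80, where the spot SD was 0.29. From median pixels the ratio was 0.54 and with normexp 0.29, both under 1.5-fold. On neither array was the second Adamts17 probe well above background. Adamts6 and Adamts10 had ratios of 0.09 and 0.17. Adamts13, which cuts von Willebrand factor, and Adamts15, Adamts16, Adamts18, Adamts19 and Adamts20 were not well above background on either array. Adamts19 was printed 10 times, with signals of 5.38 to 6.66 in normal and 4.86 to 7.84 in high glucose.

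Genes that act with these enzymes were described from 4 lists. The first holds the plasminogen activators, proprotein convertases and membrane regulators that control MMP activation, and 9 of its 13 measured members were lower, against 53.2% of all measured genes, with a median of -0.04. None of them passed 1.5-fold, against 2.81% of all measured genes. Serpinb2, an inhibitor of urokinase, had 261 in normal and 205 in high glucose, a log2 ratio of -0.27. Reck, a membrane-anchored inhibitor of several MMPs, had 1052 and 853, a ratio of -0.22, and -0.07 on its second probe. Serpine2, a protease inhibitor, had 4636 and 3824, a ratio of -0.20. The 3 largest differences of this list were thus all of inhibitors and all lower. The second list holds astacin proteases, pappalysins and procollagen enhancers, with 5 of 6 measured members higher, against 46.8% of all measured genes, and a median of 0.03. Pappa2, a protease of IGF-binding proteins, had 349 and 365, a ratio of 0.15. Tll1, a tolloid protease, had 1181 and 1020, a ratio of -0.13, and Pcolce2, an enhancer of procollagen trimming, had 976 and 998, a ratio of 0.11.

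**Figure D4:**
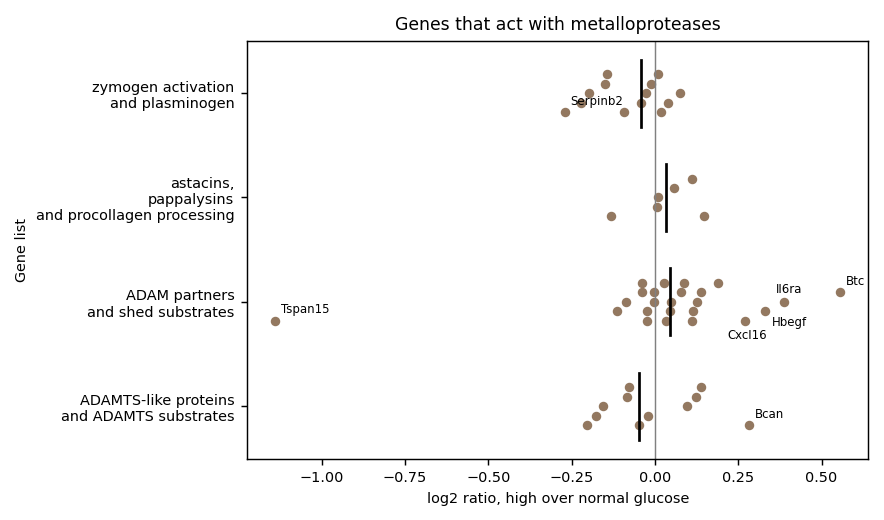
Log2 ratio (high over normal glucose) of the measured members of 4 lists of genes that act with metalloproteases; each point is a gene, the black line is the list median and points past 1.2-fold are named. The ADAM partner and substrate list holds most of the named points, with Tspan15 far to the left and Btc furthest to the right.

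Partners and shed substrates of ADAMs, the third list, had 15 of 24 measured members higher, against 46.8% of all measured genes, and a median of 0.05. Tspan15, a tetraspanin that directs ADAM10 to its substrates, was the only 1 of 24 past 1.5-fold on its brightest probe, against 2.81% of all measured genes. Tspan15 had 77.2 in normal and 33.1 in high glucose, a log2 ratio of -1.14. That signal was dim, and it rested on 1 probe. A further 4 were past 1.2-fold, each of them higher, and are named after their values were seen. In all 5 of 24 passed 1.2-fold, against 12.3% of all measured genes, and these 4 were higher, against 6.8%. Btc (betacellulin), an EGF receptor ligand, had 141 and 196, a ratio of 0.56. Il6ra, the IL-6 receptor, had 3019 and 3733, a ratio of 0.39. Hbegf, also an EGF receptor ligand, had 5775 and 6866, a ratio of 0.33. Cxcl16, a transmembrane chemokine, had 399 and 455, a ratio of 0.27. The spot SDs were 0.044 for Il6ra and 0.032 for Hbegf, against 0.10 for Btc and Cxcl16. They hold spot noise only, and each of these genes rested on 1 probe. From median pixels the ratios were 0.37 for Btc, 0.37 for Il6ra, 0.34 for Hbegf and 0.33 for Cxcl16. Notch2, also named after its values were seen, gave 0.03 on its brightest probe and -0.88 on its second. The last list holds ADAMTS-like proteins and ADAMTS substrates, with 7 of 11 measured members lower, against 53.2% of all measured genes, and a median of -0.05. Bcan (brevican) had 147 and 170, a ratio of 0.28, and -0.05 on its second probe. Acan (aggrecan) had 46.2 and 38.0, a ratio of -0.20, and Dcn (decorin) had 84384 and 70621, a ratio of -0.18.

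Of 12 pericyte markers 10 were measured, among them Pdgfrb, Cspg4 and Anpep, while Kcnj8 and Vtn were not well above background. Of the 10, 5 were higher and 5 lower, against 46.8% and 53.2% of all measured genes, with a median of -0.05. The summed signals of the list were 119433 in normal and 109616 in high glucose. Markers of other cells were present too, in which metalloproteases are also known to be expressed. Of 8 fibroblast markers 6 were measured and 5 of these were lower, against 53.2% of all measured genes, with a median of -0.13. Pi16 and Dpt were not well above background. The summed unscaled signal of the list was 174848 in normal and 165229 in high glucose. Of 9 matched macrophage and other immune markers 8 were measured, and S100a9 was not well above background. Higher were 6 of the 8, against 46.8% of all measured genes, with a median of 0.12 and a mean of -0.08. The sums were 31241 and 32329. Cd74 of this list went the other way, with 89.2 in normal and 27.9 in high glucose, a log2 ratio of -1.60 at a spot SD of 0.29. All 7 smooth muscle markers were measured, 6 of them higher, against 46.8% of all measured genes, with a median of 0.07. Their unscaled sums were 651812 and 630231, which cannot be set against the scaled ratios. Of 8 endothelial markers 4 were measured, 3 of them higher, against 46.8% of all measured genes, with a median of 0.04. Cdh5, Tek, Cldn5 and Emcn were not well above background, and the unscaled sums of the list were 12572 and 12171. The part of these cell types in the ratios of the metalloproteases and inhibitors was not tested.

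Scaling and background settings moved the class medians. The Adam and Timp medians were below 0, and below the median of all genes, under all 11 alternatives. Some of these could not differ. Median centring and the percentile over detected probes shift all genes equally, so the place of a class against all genes is fixed. The deposited table holds the same intensities, and both brightness filters left the same 3 Timp genes. The Adamts median turned from 0.06 to -0.0039 with each array centred on its median, to -0.02 with median pixels and to -0.03 without the filter on dim probes. The Mmp median stayed below 0 under these 11 alternatives and lay above the median of all genes without the filter.

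**Figure D5:**
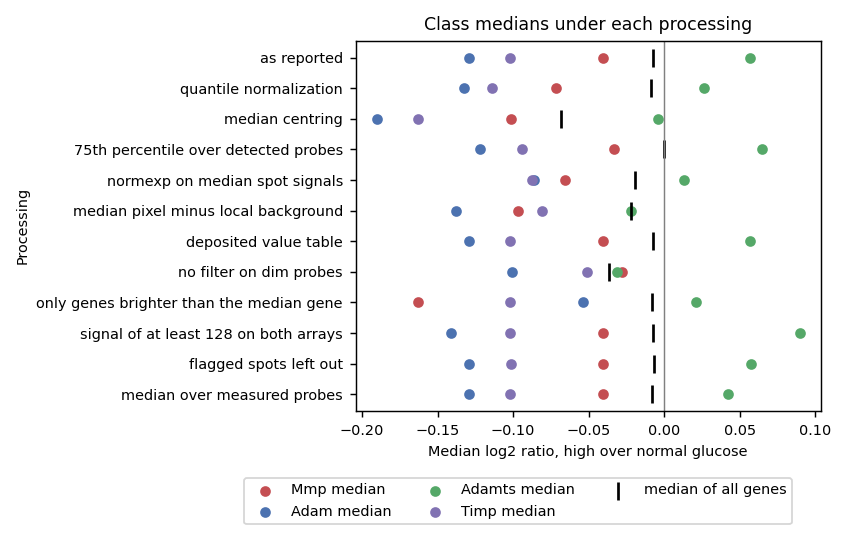
Median log2 ratio of high over normal glucose for the measured genes of each class (coloured points) and for all measured genes (black ticks) under the processing as reported and 11 alternatives. The Adam and Timp medians lie left of the black tick in every line, which a setting that shifts all genes equally cannot change. The Adamts median lies on either side of 0.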

How the data were processed

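Arrays of 2 pools, 1 per condition, were compared, and grouped as labelled. The deposited intensity of each spot was made, per the file headers, with Feature Extraction 11.5.1.1 and is its processed signal; the submitters' processing notes name version 9.3.2.1 instead. The other deposited flags are 0 or 1 per spot. The authors' deposited value table held the same intensity for 55249 of 55249 single-spot probes (relative tolerance 0.0001). The log2 of the signal was averaged over spots of a probe, and each array's 75th percentile was subtracted. Probes were named by RefSeq accession in the GRCm38.p6 table; 27509 of 55681 matched 1 symbol and 28172 none. The array design names mm9, so no probe is given a position; the promoter positions are those of the GRCm38.p6 table. A probe was measured if at least 0.5 of its spots were well above background on both arrays. Mean spot signals were not used; normexp (limma 3.58.1, offset 50) was fitted to median signals. Protein sequences were not used, so the planned split of Adam genes by zinc-binding motif was not made. All Timp and measured Mmp genes were named, Adam and Adamts genes past 1.2-fold or among the 6 brightest of their class, and list members past 1.5-fold or otherwise the 3 largest. Members and lists were chosen with earlier results of these data known. The counting step was tested on simulated data. Python 3.11.15 was used.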

Additional observations from a re-analysis of the deposited data

How the results depend on the processing

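No paired analysis was possible because each condition is 1 pooled array. The member at least 2-fold higher (1 of 44 as reported) became 0 of 44 with normexp and 4 of 79 without the dim filter. It became 0 of 14 among genes brighter than the median gene and 0 of 32 at log2 signals of at least 7. The member at least 2-fold lower (1 of 44) became 3 of 79, 0 of 14 and 0 of 32 in the last 3 of these. At log2 signals of at least 7, 0.243% of all such genes passed 2-fold in either direction. For the other settings that share is not given. The unfiltered 79 include 33 genes well above background on neither array. With median centring, which shifted the median of all genes to -0.07, class medians were -0.10 (Mmp), -0.19 (Adam), -0.0039 (Adamts) and -0.16 (Timp). With median pixels they were -0.10 (Mmp) and -0.022 (Adamts). Without the dim filter they were -0.031 (Adamts) and -0.051 (Timp), and among brighter genes -0.16 (Mmp) and -0.054 (Adam). The cause of these moves was not tested, beyond the fewer or more genes that a filter leaves. Quantile normalization, the percentile over detected probes, the deposited table, flagged spots left out and the median over probes moved none of these medians by more than the median spot SD of 0.046. Of the 32 measured members named by the rule 26 kept their sign under every alternative that measured them. Adam8, Adamts7, Mmp15, Mmp23, Mmp24 and Timp2 did not. Several alternatives could not turn the sign of a single gene. The deposited table, no dim filter and both brightness filters return the same ratio, and leaving out flagged spots barely moved it. Members named after their values were seen are not in this count. Members past 1.2-fold were 12 with median pixels and 11 with median centring, against 7 of 44 as reported. The share of all genes under these settings is not given. Repeat spots varied most at log2 signals below 7, and spread between cultures was not measured.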
